A study of Mus musculus with 10 samples.

Results

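The nuclear-encoded subunits of the mitochondrial respiratory chain were described in the dentate gyrus, the granule neuron field of the hippocampus, of mice with and without a knockout of Fndc5. Members were taken by symbol alone: Ndufa, Ndufb, Ndufc, Ndufs and Ndufv genes for complex I, Sdha to Sdhd for complex II, Uqcr genes and Cyc1 for complex III, Cox4 to Cox8 genes for complex IV and Atp5 genes for complex V. This gave 84 of the 24982 genes counted, with 36 in complex I, 4 in complex II, 9 in complex III, 18 in complex IV and 17 in complex V. Of these, 81 passed the filter on low counts and entered the comparison, with 14867 genes tested in all. The animals were C57BL/6 males of 10 weeks, 5 wild types and 5 with a global Fndc5 knockout, and each mouse gave 1 RNA-seq library. The comparison asks whether loss of Fndc5, which encodes the precursor of the secreted protein irisin, goes with a different expression of the respiratory chain.

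Complexes I to IV pass electrons from NADH and succinate to oxygen, complexes I, III and IV pump protons across the inner mitochondrial membrane as they do so, and complex V, the ATP synthase, uses the resulting gradient to make ATP. The nuclear genome encodes most subunits and all of complex II, and mitochondrial DNA encodes the rest, so each complex except complex II is built from both genomes. Neurons depend on this pathway for most of the ATP that ion pumping and synaptic transmission use, and several complex IV subunits have alternative forms known from muscle, testis or lung.

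Library totals ranged from 26226375 to 43802079 counts, and the ribosomal RNA precursor row held 0.603% to 1.85% of them. The counts table used here has 0 rows for the mitochondrially encoded subunits, which were not analysed here. All 10 listed granule neuron markers were detected, with a summed level that ran from 1990 to 2351 CPM (counts scaled to library size) across wild types and from 2189 to 2362 CPM across knockouts. Fndc5 (chr4:129136999-129144593, GRCm38) averaged 75.3 ± 4.60 CPM over the wild types against 51.3 ± 4.27 CPM over the knockouts (SD, n = 5 each), and the groups did not overlap. Its log2 fold change was -0.55 (SE 0.057, edgeR adjusted p 0.000495). With genotype alone in the model it was the only gene of the 14867 past the adjusted threshold of 0.05, a share of 0.00673%.

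Promoter sequence of 3 complex IV genes and 1 complex I gene is shown because the results below turn on them: an abundant subunit form, its almost absent alternative form, the member with the smallest p, and an abundant form with several motif matches. Each is the 250 bases before the RefSeq start on GRCm38.p6, 5′ to 3′ on the gene's own strand. In the first set, capitals mark every CG dinucleotide. Cox8a (chr19:7217617-7217866, minus strand) encodes the widely expressed form of subunit 8 and has 11 of them, Cox8b (chr7:140900447-140900696, minus strand), the muscle form, has 1, and Ndufc2 (chr7:97399753-97400002, plus strand), an accessory subunit of the complex I membrane arm, has 4.
Cox8a: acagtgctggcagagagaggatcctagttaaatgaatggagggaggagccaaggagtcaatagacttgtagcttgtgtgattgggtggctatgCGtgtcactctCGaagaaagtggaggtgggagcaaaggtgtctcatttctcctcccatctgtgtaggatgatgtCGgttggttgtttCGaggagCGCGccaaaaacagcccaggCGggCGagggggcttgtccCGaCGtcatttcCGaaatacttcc
Cox8b: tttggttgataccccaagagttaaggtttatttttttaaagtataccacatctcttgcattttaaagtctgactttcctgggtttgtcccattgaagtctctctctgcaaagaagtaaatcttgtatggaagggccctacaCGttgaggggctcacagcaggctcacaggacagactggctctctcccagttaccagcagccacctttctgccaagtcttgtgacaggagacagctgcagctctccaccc
Ndufc2: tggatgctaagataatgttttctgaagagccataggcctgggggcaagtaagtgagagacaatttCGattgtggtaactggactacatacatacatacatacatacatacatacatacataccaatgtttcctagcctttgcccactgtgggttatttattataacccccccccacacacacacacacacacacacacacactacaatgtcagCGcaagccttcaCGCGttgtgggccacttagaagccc
In Cox6a1 (chr5:115348959-115349208, minus strand), the widely expressed form of subunit 6a, capitals mark matches to the motifs searched below. They are 3 matches to the NRF1 motif, of which 2 overlap on opposite strands, and 1 match to the ETS motif on the minus strand of the printed sequence.
Cox6a1: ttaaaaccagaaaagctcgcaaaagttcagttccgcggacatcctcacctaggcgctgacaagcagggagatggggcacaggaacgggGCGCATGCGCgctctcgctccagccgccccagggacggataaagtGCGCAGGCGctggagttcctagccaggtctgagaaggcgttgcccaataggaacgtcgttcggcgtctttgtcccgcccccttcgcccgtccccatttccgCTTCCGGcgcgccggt

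RefSeq windows of 250 bases before to 50 bases after the start were at hand for 66 of the 84 members, and both strands were searched for motifs of factors known to bind promoters of mitochondrial genes. Shares are of genes, and for a gene with several windows a match in any of them counted. The NRF1 motif GCGCANGCG was found in 20 members (30.3%). It was found in 14.2% of the 11573 tested genes with a window and in 7.03% of all 27025 genes with a window. The YY1 motif AAGATGGCG was found in 7 members (10.6%, against 3.18% of tested genes and 1.64% of all genes with a window). The ETS motif CCGGAAG, bound by GABP among others, was found in 16 members (24.2%, against 18.0% and 9.93%). The CRE motif TGACGTCA was found in 4 (6.06%, against 3.44% and 2.03%) and the ERR motif TCAAGGTCA in 2, Atp5g3 and Sdhd (3.03%, against 0.337% and 0.466%). At least 1 of these motifs was present in 38 members (57.6%), against 33.3% of tested genes and 18.3% of all genes with a window. The share was uneven among complexes. In complex V 10 of 13 genes with a window held a motif, and 7 of them the NRF1 motif. In complex IV 3 of 13 held any, and 1, Cox6a1, the NRF1 motif. The complex IV genes without a match include Cox6b2, Cox7a1, Cox7b2 and Cox8b, forms that were scarce here. They also include the more abundant Cox5a, Cox5b, Cox7a2, Cox7a2l, Cox7b and Cox7c. Cox7b2 and Cox8b did not pass the low-count filter, and the main form Cox4i1 had no window. The median number of CG dinucleotides per gene was 19 in members and 21 in tested genes, with the highest window taken. These windows include the 50 bases after the start, unlike the numbers given with the sequences above. The number was 19 in Cox8a and 2 in Cox8b, 17 in Cox6b1 and 10 in Cox6b2, and 20 in Cox7a2 and 7 in Cox7a1. Cox7b went the other way, with 5 against 10 in the almost absent Cox7b2. A match describes the letters in the window and does not show that a factor binds there.

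In the wild type the members were among the abundant transcripts of the tissue. Levels are given per length, as CPM per kilobase of 1 annotated transcript per gene, when genes are compared with each other. The median was 64.3 CPM per kilobase over the 81 tested members and 8.26 over all tested genes with a length. Of the 81, 74 were above that all-gene median and 57 were among the highest 10% of genes, which began at 50.7. All members together held 0.695 ± 0.0083% of the counts in wild types and 0.697 ± 0.0187% in knockouts (SD, n = 5 each).

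Complex V had the highest median, 102 CPM per kilobase, and held the most abundant member, Atp5b, the catalytic beta subunit, at 448. Its partner in the catalytic head, Atp5a1, was at 286, and the gamma and delta subunits of the central stalk, Atp5c1 and Atp5d, were at 138 and 102. The median was 90.3 in complex IV and 85.9 in complex III. In complex IV Cox4i1, Cox8a and Cox6a1 led with 312, 290 and 245 CPM per kilobase. The 9 complex III members lay between 54.2 for Cyc1, the haem protein cytochrome c1, and 146 for Uqcrh, the hinge protein. The Rieske iron-sulfur subunit Uqcrfs1 was at 58.0, and the core proteins Uqcrc1 and Uqcrc2 were at 83.9 and 85.9.

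Complex II, which is also an enzyme of the tricarboxylic acid cycle, had Sdha, the flavoprotein, at 117 CPM per kilobase and Sdhb, the iron-sulfur subunit, at 64.3. Its membrane anchors Sdhd and Sdhc were lower, at 44.3 and 19.5. Complex I had a median of 56.5, and the middle portion of its 36 members was close together, with quartiles of 45.6 and 68.1. The core subunits Ndufv1, which carries the flavin, and Ndufs1, which carries iron-sulfur clusters, lay between these quartiles, at 63.1 and 56.5. The highest was Ndufa4 at 172, which its symbol places with complex I although the protein is now known as a complex IV subunit.

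**Figure D1:**
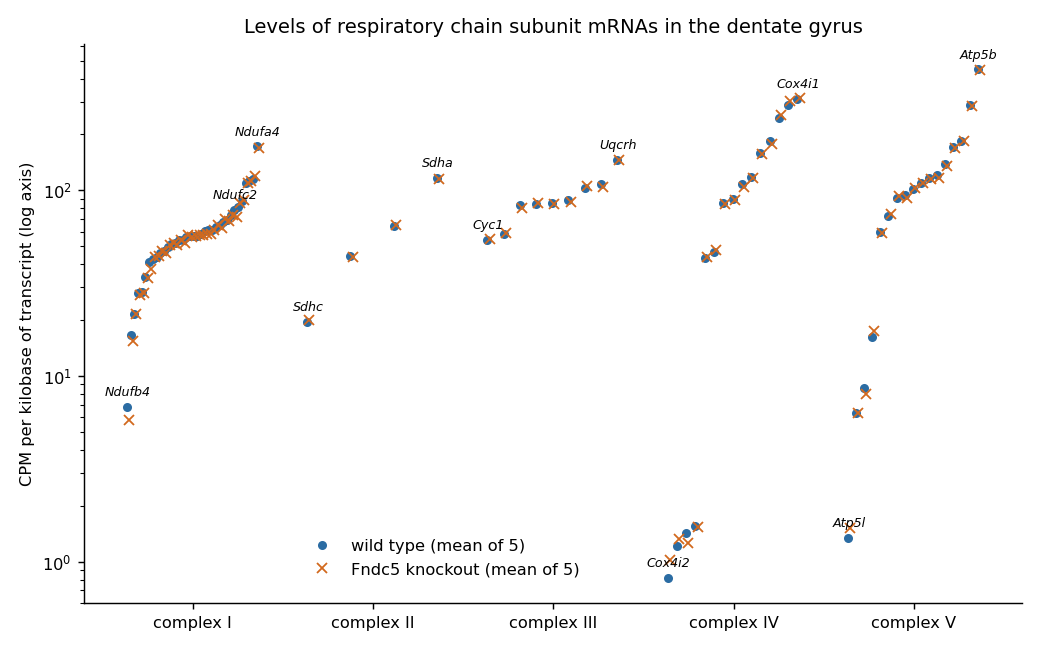
Level of each of the 81 tested respiratory chain subunit mRNAs in CPM per kilobase of transcript (log axis), sorted within complexes I to V, with the mean of 5 wild types (circles) and of 5 knockouts (crosses). The complex medians lie between 54.3 and 102 in wild types, a few members fall below 10, and circle and cross nearly coincide for most members.

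Several low levels coincided with sequence that other genes share, which limits how a read is assigned. Atp5l, a membrane subunit of the ATP synthase, was at 1.34 CPM per kilobase, and 76.0% of the 75-base windows of its transcript also occur in transcripts of 10 other genes. Ndufb4, a membrane-arm accessory subunit, was the lowest complex I member at 6.80, with 35.2% of its windows shared. Atp5g2, 1 of 3 genes for the same c-ring protein, was at 16.2 with 100% shared. Shared windows did not always go with a low level, since Atp5h was at 184 with 40.3% shared and Atp5o at 110 with 39.1%. Over the 84 members, 49 shared no window and 21 shared more than 10%. How the authors' counting treated reads that map to several places is not given in the sources used here, so the part of shared sequence in these levels was not tested.

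Levels of members were close between mice of a genotype. The median coefficient of variation over the 5 wild types was 3.82% for members and 7.37% for all tested genes. Counting error is smaller at higher counts, so the same was taken at similar levels. Between 30.8 and 94.0 CPM, the quartiles of the members, it was 3.68% for 41 members and 5.29% for 3663 genes. Atp5b varied least of the 81, at 861, 852, 858, 861 and 860 CPM in wild-type mice 1 to 5 (coefficient of variation 0.463%). Over the 5 knockouts its coefficient of variation was 2.07%, and the median over the 81 members was 4.47%.

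The complex IV subunits with the alternative forms listed here were present almost wholly as 1 form. Cox4i1, the regulatory subunit 4 of most tissues, was at 312 ± 3.76 CPM per kilobase in wild types, and Cox4i2, the form known from lung and from low oxygen, was at 0.822 ± 0.282 (SD, n = 5), or 0.262% of the pair. Cox6a2 and Cox7a1, the heart and muscle forms, made up 0.630% and 1.11% of their pairs with Cox6a1 and Cox7a2. Cox6b2 and Cox7b2, known from testis, made up 0.893% and 0.390% of their pairs with Cox6b1 and Cox7b.

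Cox8b, the other muscle form, had 30 counts in the 10 libraries together, with 1 to 5 in each, and made up 0.0869% of its pair with Cox8a. Cox8c, known from testis, had 0 counts of 314560962, which allows a level of up to 0.00954 CPM over the libraries together (3 counts, counting error only). Cox7b2, Cox8b and Cox8c are the 3 members that did not pass the low-count filter, with 57 counts in all libraries for Cox7b2. Cox7a2l, a relative of subunit 7a, stood apart from these forms at 46.7 CPM per kilobase, below the 108 of Cox7a2.

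In the knockout the share of each scarce form lay within 1 SD of its wild-type mean, except for Cox7a1, at 1.26 ± 0.422% against 1.11 ± 0.149%. Knockout values of the share were 0.321 ± 0.0824% for Cox4i2, 0.599 ± 0.164% for Cox6a2, 0.803 ± 0.195% for Cox6b2 and 0.0891 ± 0.0362% for Cox8b. With 11 to 39 counts per library for Cox4i2 and 11 to 26 for Cox7a1, the depth could not show moderate changes of these forms. The 95% interval of the log2 fold change was -0.27 to 0.83 for Cox4i2 and -0.42 to 0.62 for Cox7a1.

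**Figure D2:**
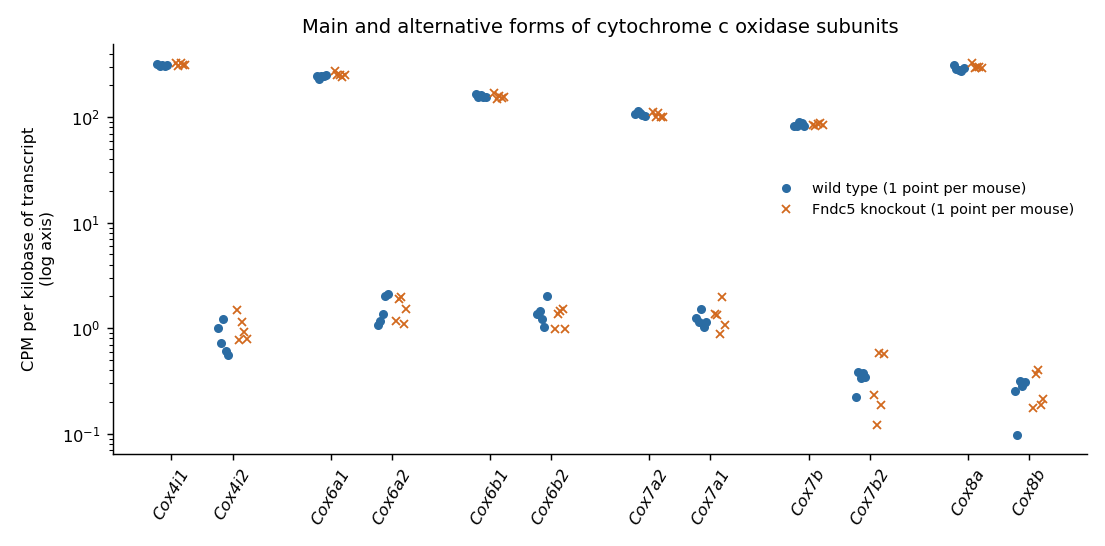
CPM per kilobase of transcript (log axis) of 6 complex IV subunits in their main and alternative form, 1 point per mouse, wild types as circles and knockouts as crosses. The wild-type means of the main forms run from 85.1 for Cox7b to 312 for Cox4i1, and those of the alternative forms from 0.251 for Cox8b to 1.56 for Cox6a2.

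The c ring of the ATP synthase is encoded by 3 genes whose mature proteins are the same and whose import signals differ. Mean CPM in wild types and then in knockouts was 123 ± 3.99 and 121 ± 4.90 for Atp5g3, 29.5 ± 3.19 and 29.5 ± 1.52 for Atp5g1, and 7.16 ± 0.625 and 7.69 ± 0.452 for Atp5g2 (SD, n = 5 each). No order per length is given for Atp5g1, because its annotated principal transcripts run from 596 to 4715 bases. The fitted log2 differences between genotypes were -0.02 for Atp5g3, 0.00 for Atp5g1 and 0.11 for Atp5g2, and the last had an SE of 0.080 and was at 0.06 with GC and length offsets.

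No member differed between genotypes past the adjusted threshold, and the smallest edgeR adjusted p among the 81 was 0.788. Values were higher in the knockout for 36 members and lower for 45, with a median log2 fold change of -0.01, where all tested genes had 7542 higher, 7325 lower and a median of 0.00. The split changed with the scaling, since upper-quartile scaling gave 48 higher and 33 lower, and offsets for GC content and transcript length gave 22 higher and 59 lower. Members had short transcripts, with a median of 745 bases against 2791 for tested genes.

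By complex, with TMM scaling, the median log2 difference was -0.01 for complex I (15 higher, 21 lower), 0.00 for complex II (2 and 2), -0.01 for complex III (4 and 5), 0.00 for complex IV (8 and 7) and -0.01 for complex V (7 and 10). Leaving out 1 library at a time kept every one of these medians between -0.03 and 0.02. Their sign changed with the scaling. Upper-quartile scaling put them between 0.00066 and 0.0089, with 22 higher and 14 lower in complex I. GC and length offsets put them between -0.029 and -0.012, with 9 higher and 27 lower in complex I. With TMM scaling the 7 core subunits of complex I had 5 higher and 2 lower (median 0.02). The 29 accessory subunits had 10 higher and 19 lower (median -0.01).

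**Figure D3:**
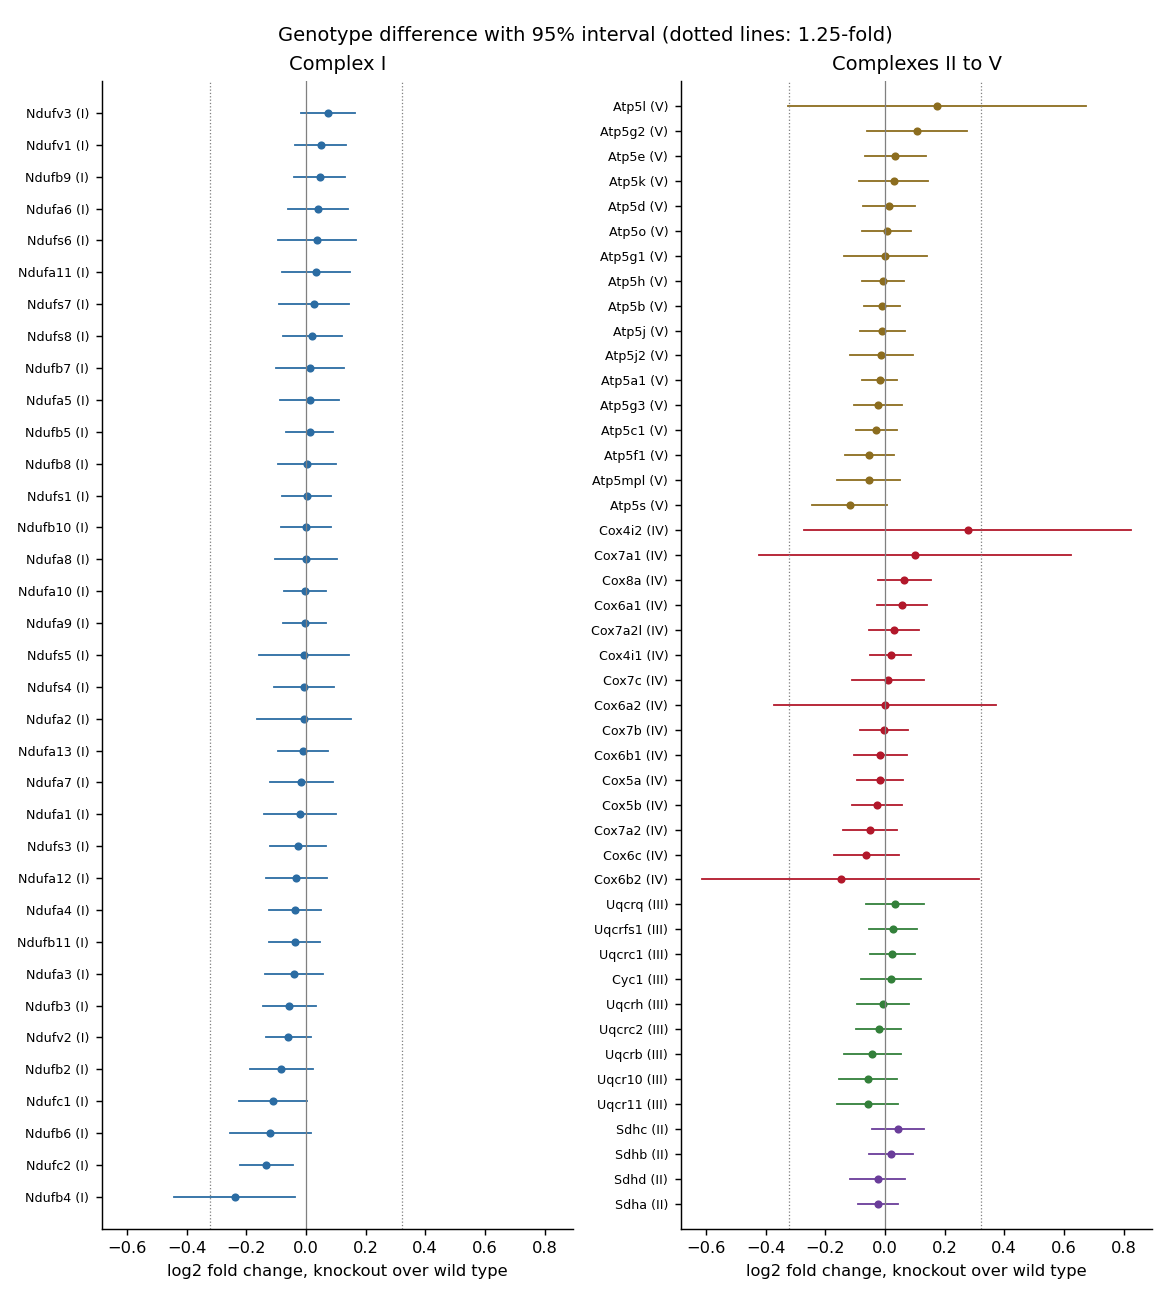
Log2 fold change of knockout over wild type for the tested members other than 1 of complex I, with the 95% interval from edgeR and dotted lines at 1.25-fold in either direction, for complex I at the left and complexes II to V at the right. The points cluster around 0, and the intervals that cross a dotted line are those of Atp5l, Cox4i2, Cox6a2, Cox6b2, Cox7a1 and Ndufb4.

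The data bound the size of a difference more tightly for members than for genes at large. These sets were not matched for level, and the part of the members' higher levels in this was not tested. The whole 95% interval stayed inside a 1.25-fold change either way for 75 of 81 members (92.6%), against 74.1% of tested genes, and within 1.1-fold for 49 (60.5%), against 24.6%. The 6 members outside 1.25-fold were Atp5l, Cox4i2, Cox6a2, Cox6b2, Cox7a1 and Ndufb4. All 4 complex II members and 7 of 9 complex III members were within 1.1-fold. The median interval reached 0.0927 to either side on the log2 scale in members and 0.137 in all genes.

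For Ndufv1 and Ndufs1, and for the catalytic or cofactor subunits of complexes II to V described here, the genotypes overlapped. Ndufs1, the largest iron-sulfur subunit of complex I, was at 138, 148, 149, 151 and 147 CPM in wild-type mice 1 to 5 and at 145, 146, 139, 145 and 157 CPM in knockout mice 1 to 5. Its log2 fold change was 0.00 (95% interval -0.08 to 0.08). Ndufv1, which binds the flavin that accepts electrons from NADH, averaged 105 ± 2.07 CPM and 108 ± 5.91 CPM (log2 difference 0.05, interval -0.04 to 0.13).

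Sdha was at 343, 351, 343, 335 and 327 CPM in wild types and at 334, 333, 327, 331 and 346 CPM in knockouts (log2 fold change -0.02, interval -0.09 to 0.04). Sdhb was at 73.5 ± 1.01 and 74.5 ± 2.05 CPM, and Sdhc, which had the smallest p in complex II, at 61.7 ± 2.10 and 63.6 ± 2.74 CPM (0.04, interval -0.04 to 0.13). In each of these 3 genes the ranges of the genotypes overlapped.

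In complex III Uqcrfs1 was at 78.8, 79.8, 80.1, 78.3 and 78.5 CPM in wild types and at 86.0, 78.9, 82.3, 77.1 and 78.6 CPM in knockouts (log2 fold change 0.03, interval -0.05 to 0.11). Knockout mouse 1 was above every other mouse and knockout mouse 4 below. Cyc1 was at 82.3 ± 4.60 and 83.4 ± 4.58 CPM. The smallest p-values in this complex, all above 0.05, belonged to the small subunits Uqcr10 (log2 fold change -0.06, SE 0.045), Uqcr11 (-0.06, SE 0.049) and Uqcrb (-0.04, SE 0.045). With GC and length offsets Uqcr10 was at -0.10 (unadjusted p 0.0277), Uqcr11 at -0.11 (unadjusted p 0.0226) and Uqcrb at -0.01.

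Cox4i1 was at 236, 230, 234, 229 and 231 CPM in wild types and at 245, 226, 241, 234 and 231 CPM in knockouts (log2 fold change 0.02, interval -0.05 to 0.09). Cox8a had the smallest p in complex IV, with 173, 156, 154, 152 and 161 CPM in wild types and 178, 161, 166, 165 and 162 CPM in knockouts. Its log2 fold change was 0.06 (SE 0.042, p 0.145, adjusted p 0.806). The groups overlapped, since wild-type mouse 1 lay above 4 of the 5 knockouts. Cox6a1 followed with 140 ± 4.75 and 145 ± 6.83 CPM (0.06, SE 0.039) and Cox6c with 93.1 ± 5.82 and 89.2 ± 5.90 CPM (-0.06, SE 0.051). With GC and length offsets Cox8a was at 0.01 and Cox6a1 at 0.0067.

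In complex V Atp5b was at 860, 833, 879, 848 and 844 CPM in the knockouts, on both sides of the narrow wild-type range given above (log2 fold change -0.01, interval -0.07 to 0.05, and 0.00066 with upper-quartile scaling). Atp5a1 was at 717, 710, 703, 707 and 703 CPM in wild types and at 710, 690, 709, 691 and 698 CPM in knockouts (-0.02, interval -0.08 to 0.04). These 2 subunits form the catalytic hexamer. Atp5f1, the peripheral stalk subunit b, was at 152 ± 8.27 and 147 ± 2.36 CPM (-0.05, SE 0.039).

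At an unadjusted p under 0.05 there were 2 members of 81, Ndufc2 and Ndufb4, both lower, where 6.29% of all tested genes reached this level and 3.75% reached it with lower values. The members' share was thus below the background in this fit. That relation depends on the setting. With GC and length offsets 5 of the 81 members, all lower, and 650 of the 14723 tested genes with a length reached this level. Ndufc2 and Ndufb4 both encode accessory subunits of the complex I membrane arm.

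Ndufc2 had the smallest p of any member. It was at 55.5, 54.9, 52.9, 50.9 and 53.3 CPM in wild-type mice 1 to 5 and at 50.8, 45.3, 48.7, 50.3 and 48.9 CPM in knockout mice 1 to 5. Every knockout was below every wild type, by a gap of 0.148 CPM between the nearest mice. The fitted difference was -0.13 on the log2 scale (SE 0.042, 95% interval -0.22 to -0.04; edgeR p 0.00629, adjusted p 0.788). No 75-base window of Ndufc2 is shared with another gene. A processed pseudogene, Gm16053, lies on the same strand within it.

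Ndufb4 was at 6.39, 6.85, 7.41, 7.18 and 5.20 CPM in wild types and at 5.18, 5.88, 5.76, 5.76 and 5.50 CPM in knockouts. Wild-type mouse 5 lay with the knockouts, and the other wild types lay above them. Its difference was -0.24 on the log2 scale (SE 0.096, 95% interval -0.44 to -0.04; edgeR p 0.024, adjusted p 0.788). The p was 0.0777 without wild-type mouse 3, 0.059 without wild-type mouse 4 and 0.0592 without knockout mouse 1. Without wild-type mouse 5 the difference was -0.31 with a p of 0.00211 (adjusted p 0.450). At this low level and with 35.2% of its windows shared, the count of Ndufb4 is uncertain.

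Ndufc1, the small subunit that neighbours Ndufc2 in the membrane arm, came next. It was at 20.99, 21.5, 21.9, 19.3 and 20.1 CPM in wild types and at 20.6, 19.7, 18.5, 18.4 and 19.2 CPM in knockouts, and the groups overlapped. The log2 fold change was -0.11 (SE 0.054, edgeR p 0.0593, adjusted p 0.789). Ndufb6, another membrane-arm subunit, was at -0.12 (SE 0.064). Lower values were not general in these families, since of the 10 Ndufb members 5 were higher and 5 lower. The 2 Ndufc members were both lower.

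Groups did not overlap for 3 of the 81 tested members, Ndufc2, Ndufv2 and Atp5s, all lower in the knockout. Over all tested genes 0.895% had groups that did not overlap and 0.437% did so with lower values. The members' share, which rests on these 3 genes, was thus above the background. Ndufv2, the iron-sulfur core subunit beside Ndufv1, was at 100.4, 109, 99.6, 102 and 102 CPM in wild types and at 99.3, 94.9, 99.5, 98.7 and 99.0 CPM in knockouts. The nearest mice of the 2 groups were 0.133 CPM apart, and the log2 fold change was -0.06 (SE 0.035, edgeR adjusted p 0.800). With offsets for GC content and transcript length it was -0.01 (unadjusted p 0.704).

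Atp5s, a coupling factor-like protein that is not a classical ATP synthase subunit, was at 13.0, 13.7, 12.7, 12.4 and 12.4 CPM in wild types and at 12.1, 11.99, 11.2, 12.2 and 11.7 CPM in knockouts. The gap between the nearest mice was 0.205 CPM. Its log2 fold change was -0.12 (SE 0.059, edgeR p 0.0614, adjusted p 0.789), and with the same offsets it was -0.04 (unadjusted p 0.478).

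**Figure D4:**
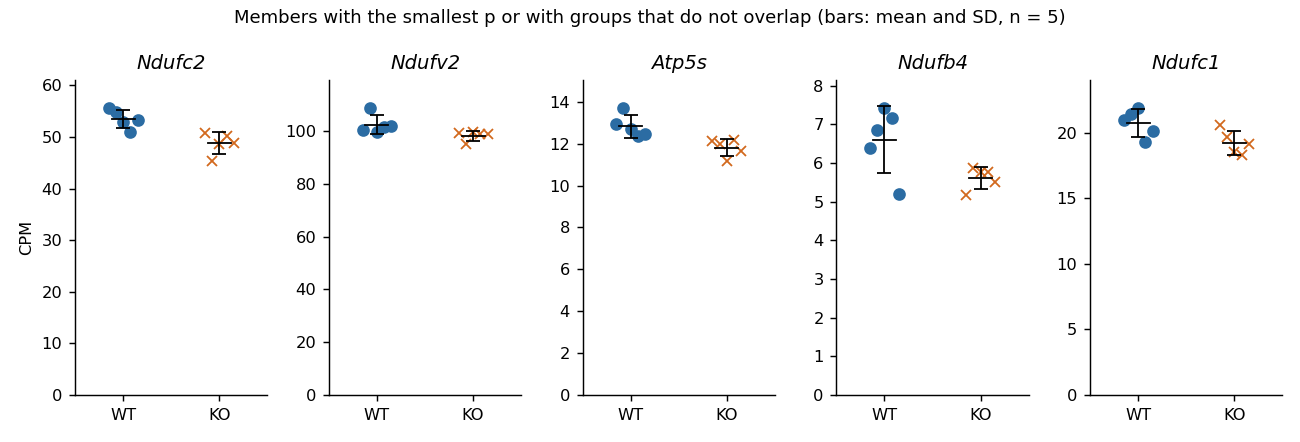
CPM of Ndufc2, Ndufv2, Atp5s, Ndufb4 and Ndufc1 in 5 wild types (circles) and 5 knockouts (crosses), 1 point per mouse, with bars for mean and SD. The vertical axes start at 0. The groups are narrowly apart in Ndufc2, Ndufv2 and Atp5s and overlap in Ndufb4 and Ndufc1. In Ndufb4 wild-type mouse 5, at 5.20 CPM, lies among the knockouts.

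The mean over the members differed between mice of 1 genotype by more than between the genotypes. The mean log2 CPM over the 81 members, relative to the wild-type mean, was 0.03, -0.01, 0.03, -0.03 and -0.03 in wild-type mice 1 to 5. It was 0.04, -0.05, 0.04, -0.01 and -0.05 in knockout mice 1 to 5. The groups differed by -0.0051, with an SD of 0.0305 in wild types and 0.0429 in knockouts. Knockout mice 1 and 3 were the highest and knockout mice 2 and 5 the lowest of all 10 mice. The ribosomal RNA precursor share in knockout mice 1, 3, 2 and 5 was 1.20%, 0.686%, 1.29% and 0.603%, and its part in the spread was not tested.

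**Figure D5:**
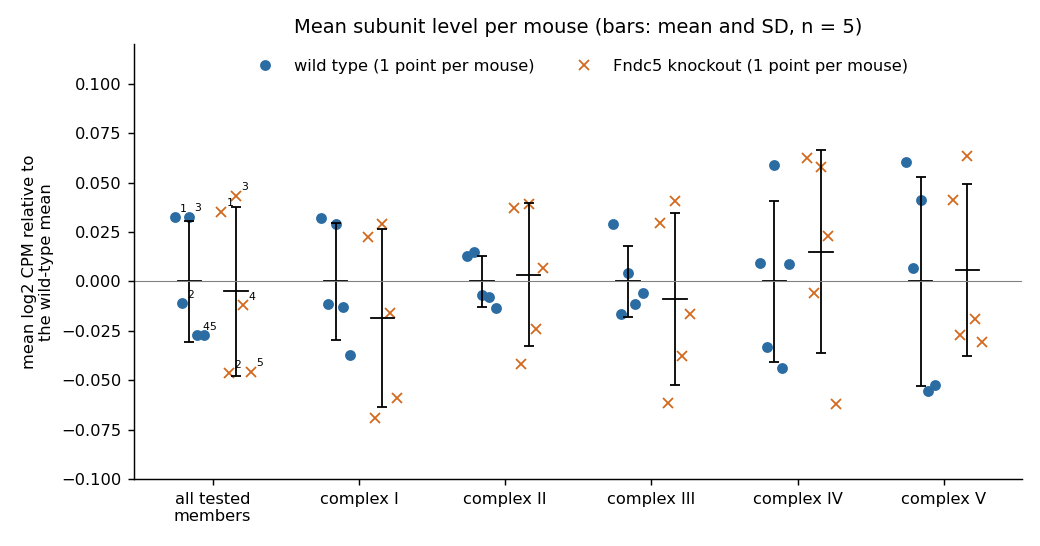
Mean log2 CPM of the tested members of each complex in every mouse, set against the mean of the wild types, with bars for mean and SD (n = 5 per genotype). All points lie between -0.07 and 0.07, both genotypes span the zero line in every complex, and the small numbers beside the first group give the mouse.

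Correlations between members were taken across the 10 libraries after the mean of each genotype was subtracted. The median Pearson correlation of log2 CPM between 2 members was 0.277 over 3240 pairs, and 72.5% of the pairs were above 0. The median was 0.520 for cytosolic ribosomal protein genes and 0.0934 for mitoribosomal protein genes. Within complexes it was 0.330 in complex V, 0.311 in complex III, 0.272 in complex I, 0.176 in complex IV and 0.0856 in complex II. Cox4i1 followed the other members most closely, with a median correlation of 0.585, and Ndufs1 ran against them, at -0.349. The libraries share scaling and RNA quality, so these values are a description of 10 libraries.

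Of the genes outside the member list, Nit2 was most like the member mean, with a correlation of 0.955 over the 10 libraries. It was followed by Kdelr2 (0.907), Ist1 (0.903), Psmc5 (0.902) and Psmb3 (0.900). Here the genotype means were not subtracted.

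Genes that build, feed or regulate the respiratory chain were also without a call, with 0 genes past the adjusted threshold in each of the lists below. Assembly factors had 5 higher and 8 lower of 13 for complex I, 4 and 0 of 4 for complex II, 3 and 3 of 6 for complex III, 8 and 10 of 18 for complex IV and 2 and 2 of 4 for complex V. The copper chaperone Sco1, needed for complex IV, averaged 9.90 ± 0.574 CPM and 8.78 ± 0.460 CPM (log2 difference -0.17, SE 0.069, edgeR adjusted p 0.788). Electron carriers and coenzyme Q synthesis genes had 10 higher and 3 lower of 13 (median 0.02), and the tricarboxylic acid cycle 8 and 9 of 17 (median 0.00), with the shared dehydrogenase subunit Dld at -0.08 (SE 0.039). Respiratory chain genes that the symbol rule does not take, such as Ndufab1 and Ndufa4l2, had 1 higher and 2 lower of 3.

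Regulators of mitochondrial genes had 8 higher and 7 lower of 15 (median 0.00). The mitochondrial RNA polymerase gene Polrmt averaged 27.7 ± 3.76 CPM and 31.1 ± 1.70 CPM (log2 difference 0.17, SE 0.078, edgeR adjusted p 0.788). Import and cristae genes were split 8 to 8 (median 0.00), glycolysis genes had 5 higher and 10 lower of 15 (median -0.02), mitoribosomal proteins 46 and 32 of 78 (median 0.01) and cytosolic ribosomal proteins 59 and 15 of 74 (median 0.03).

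In whole tissue, fewer cells of a type and less RNA per cell cannot be told apart. Granule neuron markers had 6 higher and 4 lower of 10 (median 0.03) and interneuron markers 2 and 10 of 12 (median -0.10), the latter summing to between 703 and 830 CPM over wild types and between 691 and 746 CPM over knockouts. Astrocyte markers had 5 higher and 4 lower of 9, oligodendrocyte markers 6 and 2 of 8, microglia markers 6 and 2 of 8, endothelial and mural markers 4 and 6 of 10, and choroid plexus markers 2 and 1 of 3. The part of cell makeup in the members' values was not tested.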

How the data were processed

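RNA was sequenced from 1 dentate gyrus library per mouse, with stranded poly(A) libraries and single-end reads of 75 bases, per the labels' protocols. The authors deposited whole-number read counts for each gene symbol, not normalized. STAR 2.5.1b, Cufflinks 2.2.1 and build mm10 are listed in the submitters' processing notes, with no role or order. How strand and multiply mapping reads were handled is not given in the sources used here, so overlapping genes and near-identical copies are uncertain.

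Genes were filtered with filterByExpr, scaled by TMM and compared between genotypes with edgeR 4.0.16 (glmQLFit, glmQLFTest) in R 4.3.3, with Benjamini-Hochberg adjustment over all genes tested and a threshold of 0.05. Each SE was derived from the F statistic, and each 95% interval from a t quantile. CPM is on TMM-scaled library sizes, and log2 CPM uses a prior count of 2. Lengths, shared 75-base windows and gene coordinates come from GENCODE M21 (GRCm38), which matched all 84 members, and promoters from RefSeq (GRCm38.p6). The steps were checked on simulated data. Alternatives used DESeq2 1.42.0 and limma 3.58.1, other scalings and filters, GC and length offsets, the mouse number as a block, and each library left out.

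The members and gene lists were chosen with earlier results of these data known. Full values were given for Fndc5, the 3 members of each complex with the smallest p, members at an unadjusted p under 0.05 or with groups that do not overlap, catalytic and cofactor subunits and sets of alternative forms. In each list up to 2 genes with the smallest p, and the 5 other genes most like the member mean, could be named. The values of 1 complex I member are not reported here, but it is included in the counts and medians. Every pair of libraries of a genotype differed by more than sampling noise (chi-square at least 4.63 times its degrees of freedom).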

Additional observations from a re-analysis of the deposited data

Results flagged for a closer look

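In each genotype the mouse farthest from the others was compared with the range of its group for the 33 subunits chosen for full values and for the mean level of all tested members and of each complex. Of 78 groups of 5 mice checked, 66 for single subunits and 12 for mean levels, 4 had such a mouse, where chance gives about 1 in 20, or 3.9. Atp5g2 was at 8.25 CPM in wild-type mouse 5, and the other wild types were between 6.71 and 7.11 CPM. Cox8a was at 178 CPM in knockout mouse 1, and the other knockouts were between 161 and 166 CPM. Ndufv2 was at 109 CPM in wild-type mouse 2, with the other wild types between 99.6 and 102 CPM, and at 94.9 CPM in knockout mouse 2, with the other knockouts between 98.7 and 99.5 CPM.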

How the results depend on the processing

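No member passed the adjusted threshold under any alternative run, and the lowest adjusted p of a member was 0.315, with the mouse number as a block. The count of genes called, 1 in the fit reported, was 8 with the replicate block and 3 with the DESeq2 Wald test, and 1 to 3 with a library left out (3 without wild-type mouse 1, 2 without knockout mouse 2). Same-numbered mice had correlations of 0.209, 0.204, 0.108, 0.00901 and 0.0282 between their deviations, of which 3 are over 0.1, and 6 of 10 libraries correlated best with their own number in the other genotype. Since the labels tie the numbers to no litter, batch or day and not every pair is over 0.1, they were not treated as pairs. With the block 3 members, Ndufb4, Ndufb6 and Ndufc2, had an unadjusted p under 0.05. That count was 2 in the fit reported and 5 with GC and length offsets (Ndufb2, Ndufb4, Ndufc2, Uqcr10 and Uqcr11, all lower). It was 1 (wild-type mouse 3 left out) to 4 (knockout mouse 1 left out) with 1 library fewer. Over all genes tested the count moved too. It was 935 in the fit reported, 1493 with the block, 650 with the offsets and 842 without wild-type mouse 3. The medians of all members and of each complex moved by less than the spread between mice. Of 591 values of the 33 subunits chosen for full values under other settings, 23 changed sign, all from log2 values near 0 or from scarce forms. These were Atp5b with upper-quartile scaling (0.00066), Cox4i1 (-0.026), Cox6a2 (-0.022), Cyc1 (-0.0099) and Sdhb (-0.0083) with the offsets, and Cox6a2 with DESeq2 (-0.0097). With a library left out, Atp5g1 ran from -0.031 to 0.060, Cox6a2 from -0.12 to 0.13, Cox6b1 from -0.047 to 0.0048, Cox7a1 from -0.085 to 0.23, Cyc1 from -0.0026 to 0.046 and Ndufs1 from -0.023 to 0.020. The cause was not tested. After seeing the data, Ndufa4 was also counted with complex IV and Atp5s and Cox7a2l were left out, and members with more than 10% of windows shared were left out (median 0.00 over 60 members). Depth limits the scarce forms, whose intervals exceed 1.25-fold.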
